A study of Homo sapiens with 6 samples.

Results

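The iron storage, uptake and heme genes examined here are FTL, FTH1, TFRC, HMOX1, SLC40A1, SLC11A2, IREB2, ACO1, NCOA4 and BLVRB, 10 of the 57133 gene symbols in the count table. They were listed by name for their roles, with earlier results of these data known, so the share of them that was called is a description. The RNA-seq libraries are of T98G, a human glioblastoma cell line. CBX8, a chromobox subunit of Polycomb repressive complex 1, had been knocked out with Cas9 after transfection and puromycin selection, and the methods do not say whether the line is 1 clone. The CBX8 KO libraries (n = 3) came from knockout cells with the empty doxycycline-inducible vector, and the WT CBX8 re-expression libraries (n = 3) from the same knockout line with the vector carrying V5-tagged wild-type CBX8. All 6 cultures also carried the reverse tetracycline transactivator and received doxycycline at 1 μg/ml for 72 h. No library from unedited T98G cells was analysed, so each difference is that of re-expression against knockout, and the effect of CBX8 cannot be told apart from other differences between the 2 stable lines. Separate cultures are not named in the labels. P-values therefore measure the spread between these libraries, which may be technical.

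Iron that enters a cell bound to transferrin is taken up through the transferrin receptor TFRC, leaves the endosome through the divalent metal transporter SLC11A2, is stored in a shell of ferritin heavy (FTH1) and light (FTL) chains, and is exported by ferroportin, SLC40A1. The iron regulatory proteins ACO1 and IREB2 bind a hairpin, the iron-responsive element (IRE), when iron is scarce. Binding near the start of ferritin mRNAs blocks translation, and binding in the 3′ UTR of TFRC mRNA protects it from decay. NCOA4 carries ferritin to the lysosome, HMOX1 opens the heme ring and releases its iron, and BLVRB is a flavin reductase that also reduces the beta isomer of biliverdin. The alpha isomer, which HMOX1 forms, is reduced by BLVRA. RNA counts read mRNA level only, not translation.

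The IREs found in the members are shown because they are the elements through which the iron regulatory proteins act on these mRNAs. All GENCODE transcripts of each gene were searched for a bulged C, 5 paired bases, a loop and the pairing strand. The loop is CAGTGN with any base but G at its end. For each match, 6 bases are printed on each side with the loop in capitals. As background, 19701 canonical protein-coding transcripts were searched, and 0.548% of them held a match in a UTR.
FTL, chr19:48965335-48965363, plus strand, 5′ UTR in exon 1: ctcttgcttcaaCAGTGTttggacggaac
FTH1, chr11:61967574-61967602, minus strand, 5′ UTR in exon 1: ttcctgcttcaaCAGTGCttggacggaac
TFRC, chr3:196050979-196051007, minus strand, 3′ UTR in exon 19: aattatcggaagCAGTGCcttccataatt
TFRC, chr3:196050575-196050603, minus strand, 3′ UTR in exon 19: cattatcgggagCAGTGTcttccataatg
TFRC, chr3:196050510-196050538, minus strand, 3′ UTR in exon 19: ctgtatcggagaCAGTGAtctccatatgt
TFRC, chr3:196050463-196050491, minus strand, 3′ UTR in exon 19: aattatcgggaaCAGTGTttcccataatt
SLC40A1, chr2:189580661-189580689, minus strand, 5′ UTR in exon 1: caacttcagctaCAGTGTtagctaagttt
Coordinates are those of hg38, the build the authors aligned to. The elements of FTL and FTH1 share the stem around the loop. TFRC held 4 matches, the most in UTRs of any canonical transcript searched. No match with this spacing was found in any annotated transcript of HMOX1, SLC11A2, IREB2, ACO1, NCOA4 or BLVRB. This says only that this pattern is not in those transcripts. SLC11A2 is known to have an isoform with an IRE in its 3′ UTR, which the search did not find. The pattern allows no unpaired base in the stem next to the loop, so elements that depart from it are missed in any gene. Why that of SLC11A2 was missed was not tested.

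Total counts lay between 7950190 and 8659796 per library. CBX8 itself had 96, 104 and 83 counts in CBX8 KO and 30372, 31408 and 27791 upon re-expression, in the direction of the labels. The edgeR estimate is a fold of 297. How the level upon re-expression compares with that of unedited T98G cells cannot be told from these libraries. Of 7 glioma line markers, VIM and CD44 were abundant, with at least 20126 counts in every library, GFAP and OLIG2 had between 13 and 38 counts, and the glial and neural stem markers NES, with at most 4 counts, and SOX2 and S100B, with 0, were at or near 0. CD44 was called lower upon re-expression (-0.21 on the log2 scale, edgeR adjusted p = 0.00967). Erythroid markers (8 genes) summed to at most 0.343 CPM (counts per 1000000, on TMM-normalized library sizes) in any library, and 6 macrophage markers to between 4.42 and 6.91 CPM, with none of the 3 tested past FDR < 0.05. The 6 endothelial and fibroblast markers summed to between 523.9 and 556.2 CPM in CBX8 KO and between 585.6 and 615.5 CPM upon re-expression. COL1A2 made up most of that sum, COL1A1 was called higher, DCN had 0 counts and PECAM1 and CDH5 at most 1. Their part in the results below was not tested. In bulk RNA, fewer cells of a kind and less RNA per cell cannot be told apart.

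Upon WT CBX8 re-expression, 4 of the 10 genes fell, the 2 ferritin chains, the transferrin receptor and heme oxygenase, by between 27.3% and 36.3%. None rose. SLC11A2, IREB2, ACO1, NCOA4 and BLVRB did not pass the test, with estimates between -0.06 and 0.03 on the log2 scale, and SLC40A1 was not detected above the floor. Genes were tested with edgeR's quasi-likelihood test on 14461 genes, with Benjamini-Hochberg adjustment over all of them and FDR < 0.05 as the threshold. Over all tested genes, 6.63% were called lower, 6.23% higher and 12.9% in either direction. In CPM, the conditions did not overlap for 4 of the 9 tested members, lower upon re-expression in each case, and 0 were apart in the other direction. Of all tested genes, 14.4% were apart with re-expression lower and 14.4% with re-expression higher. With library size as the only scaling, 592 genes were called lower and 1400 higher in place of 959 and 901, and the same 4 genes of the group were called lower.

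**Figure D1:**
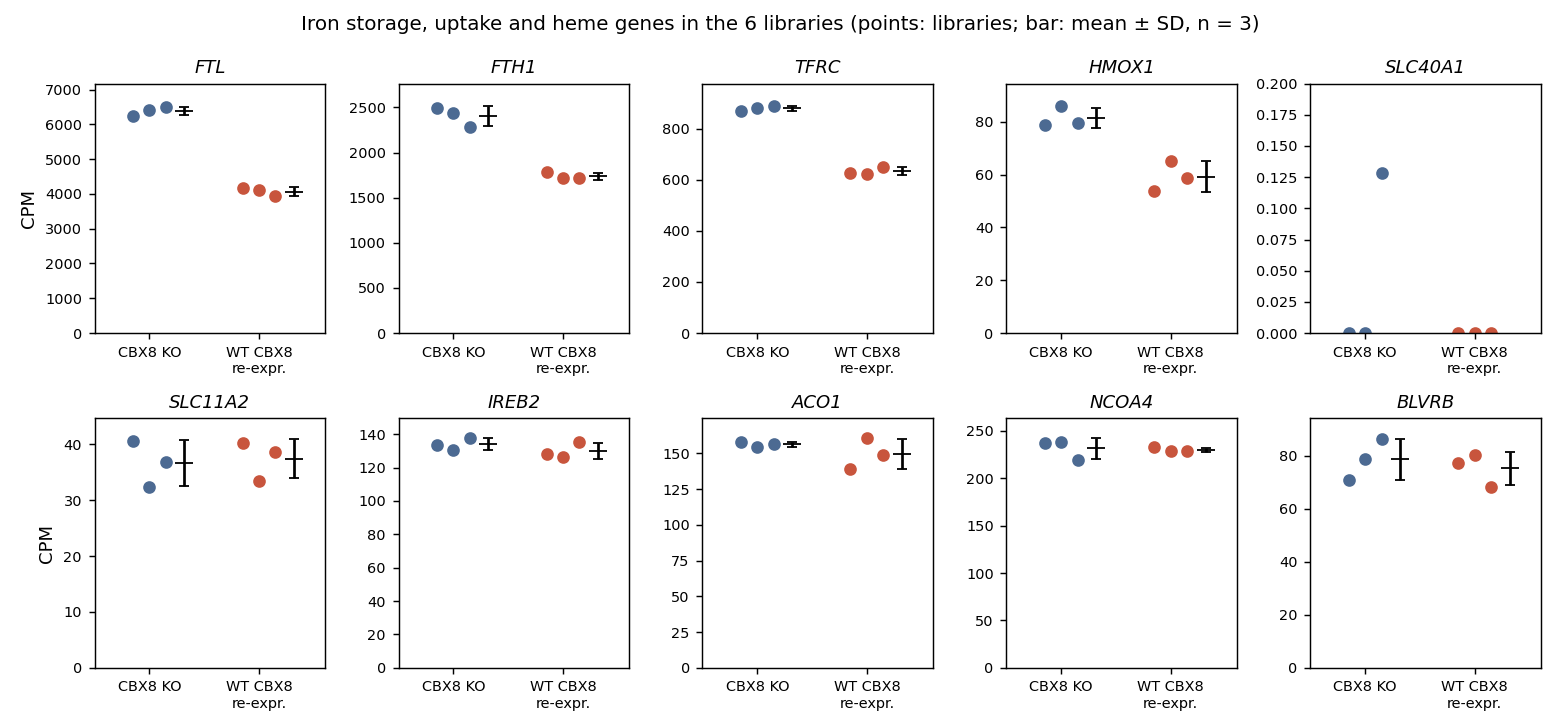
Level of each gene in CPM (vertical axes, starting at 0) in the 3 CBX8 KO libraries (blue) and the 3 WT CBX8 re-expression libraries (red), with the mean ± SD beside them, except for SLC40A1, where 1 count in 1 library is the only one. The groups are apart for FTL, FTH1, TFRC and HMOX1 and overlap for the other genes.

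FTL, the light chain of ferritin, had 49501, 53992 and 50729 counts in CBX8 KO and 35417, 35910 and 33099 counts upon re-expression. Every re-expression library lay below every CBX8 KO library, and FTL ranked between the sixth and the eighth most counted gene in CBX8 KO and between the tenth and the eleventh upon re-expression. Its level fell from 6385 ± 125 CPM (SD, n = 3) to 4069 ± 115 CPM (SD, n = 3), which gave a log2 fold change of -0.65 (SE 0.05 and adjusted p = 1.12e-09 in edgeR). FTL lies on chromosome 19 from 48965309 to 48966879, and no annotated gene overlaps its exons.

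FTH1, the heavy chain, which carries the ferroxidase activity of ferritin, had 19779, 20543 and 17805 counts in CBX8 KO and 15152, 15053 and 14393 counts upon re-expression. The groups did not overlap. The level fell from 2405 ± 113 CPM to 1738 ± 37.3 CPM (SD, n = 3 each), and the log2 fold change was -0.47 (SE 0.05 and adjusted p = 2.12e-07 in edgeR). Counts of FTH1 (chromosome 11 from 61959718 to 61967634) are uncertain, because 73.2% of the bases of its canonical transcript lie in exons of BEST1, a chloride channel gene of the retinal pigment epithelium that is transcribed from the other strand. BEST1 had 19617, 18494 and 16506 counts in CBX8 KO and 14201, 14684 and 14799 counts upon re-expression, between 0.9003 and 1.03 counts per FTH1 count. It fell with FTH1, with a log2 fold change of -0.41 (SE 0.06 and adjusted p = 8.47e-06 in edgeR). The strand setting of the counting is not given in the sources used here, and the library protocol describes no strand marking, so the reads of FTH1 and BEST1 cannot be told apart. With BEST1 counts added to FTH1, the log2 fold change of FTH1 was -0.44 (edgeR adjusted p = 1.38e-06).

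Both ferritin chains have processed pseudogenes that resemble the parent mRNA. Of 25 FTH1 pseudogene symbols in the table, 15 had a count, and together they held between 1.59% and 2.06% as many counts as FTH1 in each library. FTH1P10 had between 53 and 114 counts, FTH1P20 between 60 and 83 and FTH1P7 between 43 and 83, and none of these was called. Of 16 FTL pseudogene symbols, FTLP3 and FTLP2 had counts, and they held between 0.273% and 0.338% as many as FTL. FTLP3 had 138, 160 and 140 counts in CBX8 KO and 110, 95 and 104 upon re-expression, a log2 fold change of -0.59 (edgeR adjusted p = 0.000653), next to -0.65 for FTL, and FTLP2 had at most 12. Whether these rows hold transcripts of their own or misplaced reads of the parent gene was not tested. Adding them to the parent left the log2 fold changes at -0.65 for FTL and -0.47 for FTH1.

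The estimate for FTL was larger in size than that for FTH1. There were 2.50, 2.63 and 2.85 FTL counts per FTH1 count in CBX8 KO and 2.34, 2.39 and 2.30 upon re-expression, without overlap. The log2 of the ratio differed by -0.18 (exact two-sided permutation p = 0.1, the smallest that 3 against 3 libraries can give). Taken against FTH1 and BEST1 together, the ratio was 1.26, 1.38 and 1.48 in CBX8 KO and 1.21, 1.21 and 1.13 upon re-expression, a log2 difference of -0.21 (exact permutation p = 0.1). FTL and FTH1 made up between 0.847% and 0.872% of all counts in CBX8 KO libraries and between 0.570% and 0.612% upon re-expression.

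**Figure D2:**
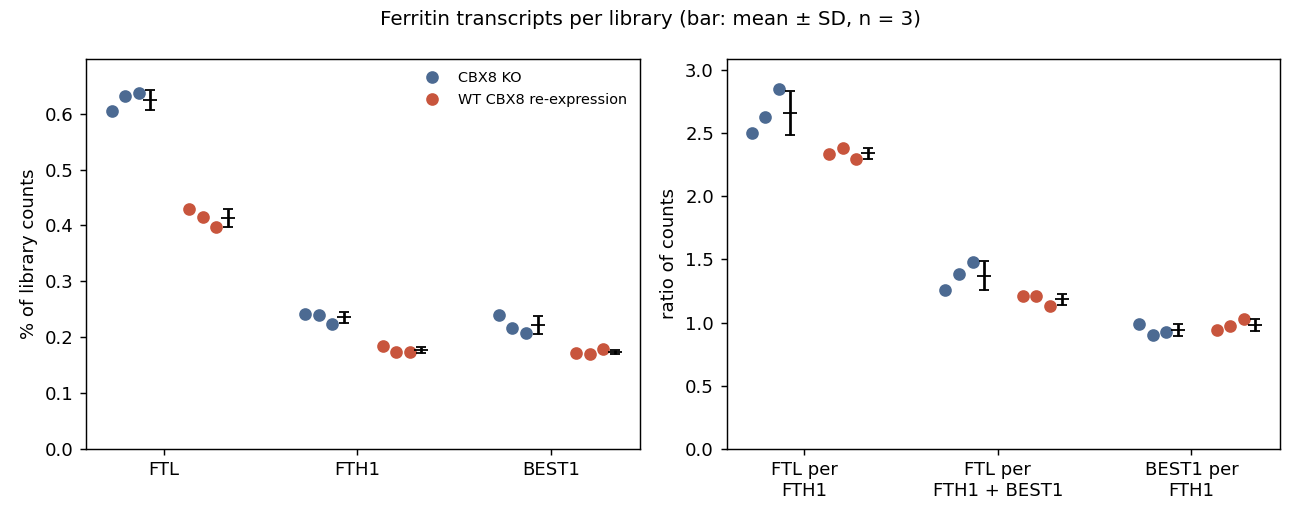
Left, the percent of each library's counts assigned to FTL, FTH1 and BEST1; right, ratios of counts within a library. Points are libraries (blue, CBX8 KO; red, WT CBX8 re-expression) and bars are mean ± SD (n = 3). FTL lies near 0.6% in CBX8 KO and 0.4% upon re-expression, and BEST1 follows FTH1 at 0.9003 to 1.03 counts per FTH1 count.

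TFRC, the receptor that brings transferrin-bound iron into the cell, had 6877, 7425 and 6941 counts in CBX8 KO and 5331, 5454 and 5469 upon re-expression. The groups did not overlap, and libraries of a condition were close to each other. The level fell from 879.5 ± 10.4 CPM to 633.6 ± 15.3 CPM (SD, n = 3 each), and the log2 fold change was -0.47 (SE 0.05 and adjusted p = 4.65e-08 in edgeR). TFRC lies on chromosome 3 from 196012511 to 196082153. TFRC fell as the ferritin chains did. Its IREs lie in the 3′ UTR and theirs in the 5′ UTR, and the part of the IREs in these changes was not tested.

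HMOX1, the inducible heme oxygenase, had 626, 723 and 623 counts in CBX8 KO and 457, 571 and 495 upon re-expression. The highest re-expression library, replicate 2, lay below the lowest CBX8 KO library. The level fell from 81.5 ± 3.79 CPM to 59.3 ± 5.77 CPM (SD, n = 3 each), and the log2 fold change was -0.46 (SE 0.07 and adjusted p = 2.30e-05 in edgeR). HMOX1 lies on chromosome 22 from 35380361 to 35394214. BLVRA, which reduces its product, had a log2 fold change of 0.09 (edgeR adjusted p = 0.608) and was not called. BLVRB, the flavin reductase, had 562, 663 and 673 counts in CBX8 KO and 656, 702 and 574 upon re-expression. These overlapped, with 78.6 ± 7.60 CPM and 75.2 ± 6.15 CPM (SD, n = 3 each) and a log2 fold change of -0.06 (95% interval -0.21 to 0.08, edgeR adjusted p = 0.635).

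The mRNAs of the iron regulatory proteins showed no difference beyond the spread between libraries. ACO1, the cytosolic aconitase that binds IREs when it lacks its iron-sulfur cluster, had 1250, 1298 and 1222 counts in CBX8 KO and 1185, 1404 and 1249 upon re-expression. Its log2 fold change was -0.06 (95% interval -0.17 to 0.05, edgeR adjusted p = 0.517). IREB2, which is degraded when iron is plentiful, had 1057, 1099 and 1077 counts in CBX8 KO and 1090, 1107 and 1139 upon re-expression. Its log2 fold change was -0.04 (95% interval -0.15 to 0.07, edgeR adjusted p = 0.674). For both genes the interval leaves out changes as large as those of FTL, FTH1, TFRC and HMOX1.

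NCOA4, the receptor for the autophagy of ferritin, had 1880, 2008 and 1712 counts in CBX8 KO and 1981, 1999 and 1921 upon re-expression, a log2 fold change of -0.01 (95% interval -0.11 to 0.09, edgeR adjusted p = 0.925). SLC11A2 had 322, 273 and 288 counts in CBX8 KO and 342, 293 and 324 upon re-expression. It was the least counted of the tested members and had the widest interval, with a log2 fold change of 0.03 (95% interval -0.16 to 0.22, edgeR adjusted p = 0.880). The groups overlapped for both genes. SLC40A1, the exporter, had 1 count in CBX8 KO replicate 3 and 0 in the other libraries. A count of 0 allows up to 3 counts, or between 0.343 and 0.384 CPM in these libraries (counting error only), so no fold is given and the exporter was not detectable at this depth in either condition.

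**Figure D3:**
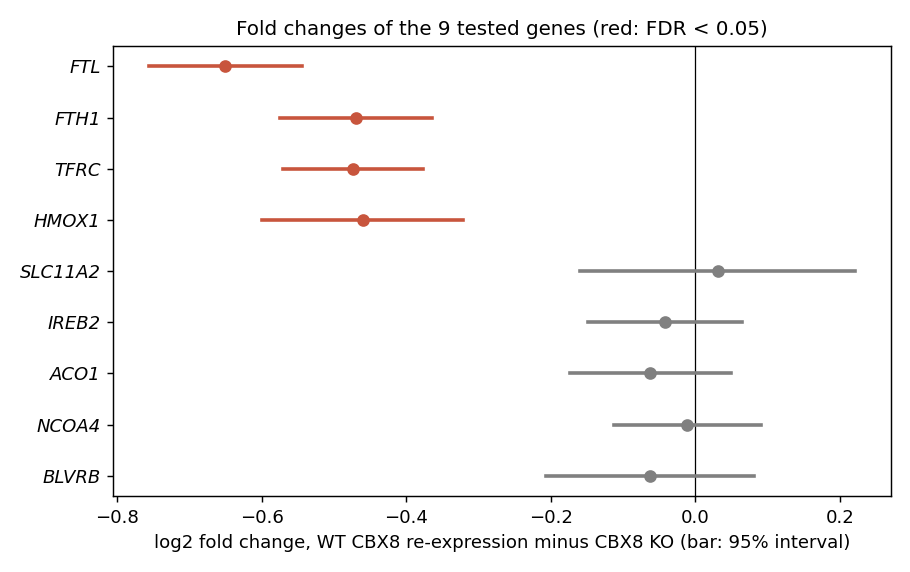
Log2 fold change of WT CBX8 re-expression minus CBX8 KO for the 9 tested genes, with 95% intervals. The intervals of FTL, FTH1, TFRC and HMOX1 (red, FDR < 0.05) lie below -0.3, and those of the other 5 (grey) include 0.

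Per kilobase of canonical transcript, FTL was the most abundant of the group in CBX8 KO, at 7331 CPM per kb, followed by FTH1 (1999), TFRC (175.5), BLVRB (98.4), NCOA4 (66.9), HMOX1 (52.5), IREB2 (21.2), ACO1 (21.0) and SLC11A2 (8.87). IREB2 and ACO1 did not differ beyond their spread, at 21.2 ± 0.58 and 21.0 ± 0.24 CPM per kb (SD, n = 3 each). The other neighbours in that order were apart by more than their SDs. Upon re-expression the order was kept, with 4672 CPM per kb for FTL, 1445 for FTH1, 126.4 for TFRC and 38.15 for HMOX1. These levels rest on counts as assigned, and that of FTH1 leaves out what was assigned to BEST1.

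Of 115 genes with an average level at least that of TFRC, 40.9% were called lower and 6.96% higher. None of the 115 had a lower log2 fold change than FTL, 7 had a lower one than TFRC and 8 a lower one than FTH1. HMOX1, at an average of 6.14 log2 CPM, lay outside this range of levels. The part of abundance in the fall of FTL, FTH1 and TFRC was not tested.

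**Figure D4:**
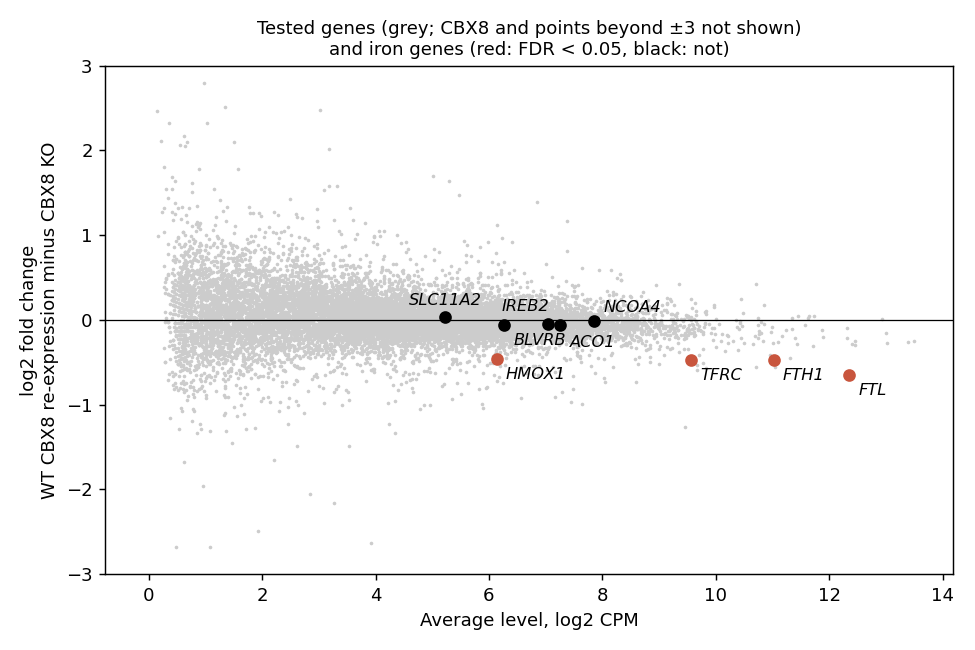
Average level in log2 CPM (horizontal) against log2 fold change of WT CBX8 re-expression minus CBX8 KO (vertical) for the tested genes (grey), with the 9 tested iron and heme genes on top. FTL, FTH1 and TFRC (red) lie at the lower edge of the most abundant genes, HMOX1 (red) lies among genes of intermediate level, and the other 5 (black) lie near 0.

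RefSeq promoters of GRCh38.p14 were matched for 8 of the 10 genes, without FTH1 and HMOX1. The letters ACGTG, the core that hypoxia-inducible factors bind, were found once before the start of FTL, at position -11, and once before that of TFRC, at position -88. The FTL stretch is shown, with the match on the other strand in capitals, because FTL was the member with the largest change.
FTL, chr19:48965189-48965308, plus strand: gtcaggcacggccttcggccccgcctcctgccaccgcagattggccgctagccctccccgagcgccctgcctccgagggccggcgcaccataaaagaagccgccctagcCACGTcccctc
In the 250 bases before the start, ACGTG was found on either strand in 18.5% of 35116 promoters, and in no promoter of the other 6 genes. TGACNNNGC, the core of the antioxidant response element, was in 10.9% of promoters and in none of these 8 genes, which says nothing about elements farther away. A match is not evidence of binding.

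The other genes of iron and heme handling were taken from 8 lists with 78 genes, of which 65 were tested, and these lists too were drawn up with earlier results known. Of these, 13 were called lower and 3 higher, or 24.62% in either direction, beside 12.9% of all tested genes, of which 6.63% were lower and 6.23% higher. The median over these 65 genes was -0.06 on the log2 scale, and that of all tested genes was 0.005.

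Among 7 tested genes of iron uptake and reduction, 3 fell and 3 rose. STEAP1 (-0.61, adjusted p = 0.0107) and STEAP2 (-0.43, adjusted p = 0.00588), of the STEAP family of metalloreductases, fell, as did the metal transporter SLC39A8 (-0.40, adjusted p = 0.0142). STEAP1 had between 88 and 94 counts in CBX8 KO and between 49 and 80 upon re-expression. LRP1, a scavenger receptor that also takes up the heme carrier hemopexin, rose from between 325 and 359 counts to between 527 and 660 counts, a log2 fold change of 0.69 (SE 0.08 and adjusted p = 3.95e-07 in edgeR). The ferric reductase CYBRD1 (0.24, adjusted p = 0.00694) and the transporter SLC39A14 (0.16, adjusted p = 0.0454) rose less. TF, TFR2, STEAP4 and LCN2 had at most 2 counts in any library.

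Of 4 tested genes of iron export and oxidation, 2 fell and 0 rose. CP, ceruloplasmin, the ferroxidase that loads iron onto transferrin, fell from between 304 and 354 counts to between 207 and 234 counts, with a log2 fold change of -0.63 (SE 0.09 and adjusted p = 1.38e-05 in edgeR). Exons of HPS3 on the other strand cover 27.7% of its transcript, so its counts are uncertain. ABCG2, a transporter that also exports heme and porphyrins, fell by 0.39 on the log2 scale (edgeR adjusted p = 1.73e-05). Of 4 tested genes of the hepcidin axis, which sets systemic iron in the liver, BMP2 and NEO1 fell. BMP2 had 48, 36 and 35 counts in CBX8 KO and 17, 25 and 10 upon re-expression, a log2 fold change of -1.28 (SE 0.27 and adjusted p = 0.00171 in edgeR). NEO1, a co-receptor of this pathway with roles in axon guidance, fell by 0.49 on the log2 scale (edgeR adjusted p = 0.000874). Hepcidin itself, HAMP, had 0 counts in every library.

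Of 9 tested genes of heme synthesis, 2 fell and 0 rose. ALAS1, the rate-limiting enzyme outside erythroid cells, fell by 0.20 on the log2 scale (edgeR adjusted p = 0.0178), and FECH, which inserts iron into the ring, by 0.22 (edgeR adjusted p = 0.0400). The other 7 were not called. None of 8 tested genes of heme breakdown and trafficking was called in either direction by edgeR, and 0 passed an unadjusted p under 0.05. The most abundant of them, the heme chaperone PGRMC2, had a log2 fold change of -0.05 (95% interval -0.19 to 0.09, edgeR adjusted p = 0.713). BACH1, the heme-sensing repressor of HMOX1 and the ferritin genes, had 341, 330 and 316 counts in CBX8 KO and 317, 325 and 328 upon re-expression. In CPM, every re-expression library (37.13 to 39.05) lay below every CBX8 KO library (39.21 to 43.04), as for 14.4% of all tested genes. Its log2 fold change was -0.11 (edgeR adjusted p = 0.402), and it was not called.

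Of 25 tested genes of mitochondrial iron and iron-sulfur cluster assembly, 3 fell and 0 rose. That is 12% of the list, near the 12.9% of all tested genes called in either direction. The 3 are SLC25A37, mitoferrin-1 (-0.22, adjusted p = 0.00812), LYRM4, a partner of the cysteine desulfurase (-0.29, adjusted p = 0.0493), and the chaperone HSPA9 (-0.18, adjusted p = 0.0117). The 4 tested genes of iron chaperones and iron sensing were not called by edgeR, with 0 at an unadjusted p under 0.05 and estimates between -0.09 and 0.04. PCBP1, the most abundant, which delivers iron to ferritin, had a log2 fold change of -0.07 (edgeR adjusted p = 0.410), and an antisense gene covers 73.2% of its exon bases. Of 4 tested genes in the list of other transcripts with a known IRE, 1 was called lower and 0 higher. That is 25% of the list, beside 12.9% of all tested genes in either direction. EPAS1 (-0.09) and CDC42BPA (0.05) are among the 3 of this list that were not called.

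**Figure D5:**
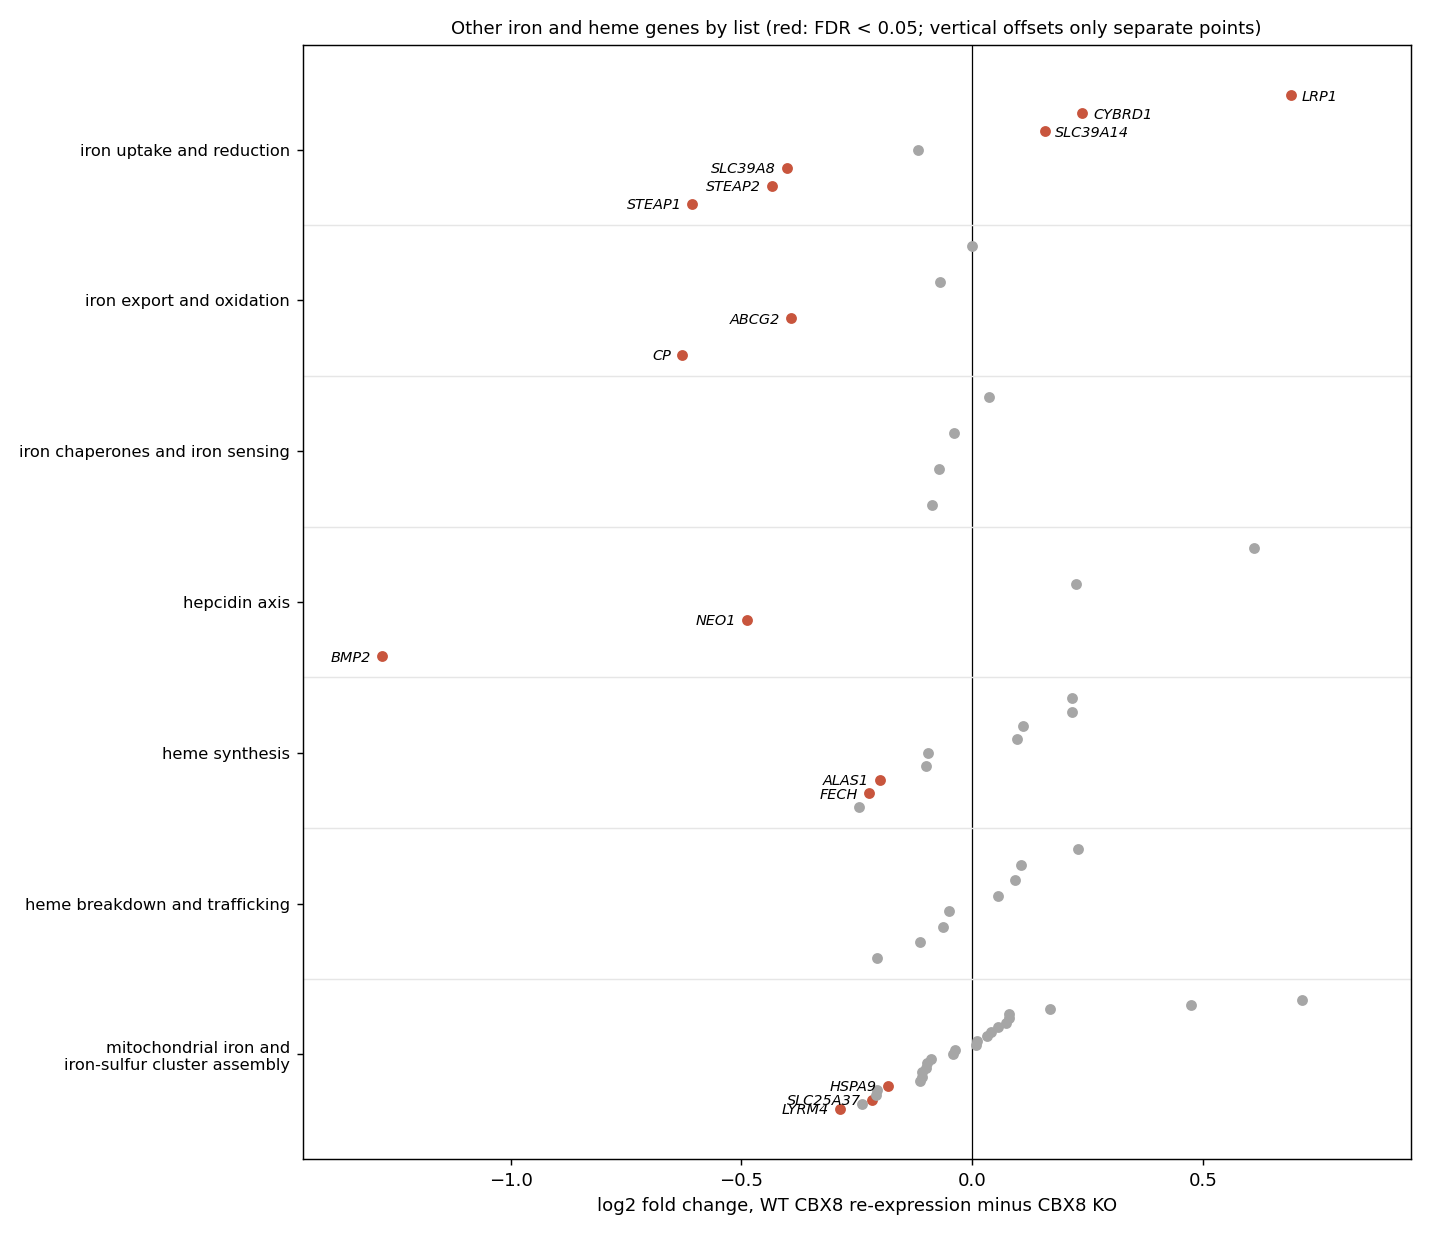
Log2 fold change of WT CBX8 re-expression minus CBX8 KO (horizontal) for 61 tested genes of 7 lists (rows); red points passed FDR < 0.05 and are named. The 12 red points left of 0 are spread over 5 lists, and the 3 to the right are in the list of iron uptake and reduction.

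Of these 16 calls, those of LRP1, CP, ABCG2, NEO1 and BMP2 held under all 17 alternative settings, and the other 11 were lost under at least 1. FECH and LYRM4 lost the call whichever library was left out, with adjusted p-values between 0.0501 and 0.186, and SLC39A14 whichever library but WT CBX8 re-expression replicate 3 was (0.0880 to 0.189). Without CBX8 KO replicate 2, adjusted p-values were 0.0613 for CYBRD1, 0.0777 for SLC39A8, 0.0911 for ALAS1, 0.0549 for SLC25A37 and 0.0746 for HSPA9. Without WT CBX8 re-expression replicate 2, they were 0.112 for STEAP1, 0.0572 for SLC39A8, 0.112 for ALAS1 and 0.0964 for SLC25A37. STEAP1 also lost the call without CBX8 KO replicate 1 (0.0572), SLC39A8 without WT CBX8 re-expression replicate 1 (0.0849), ALAS1 without CBX8 KO replicate 3 (0.0560) or WT CBX8 re-expression replicate 1 (0.0515) and HSPA9 without WT CBX8 re-expression replicate 3 (0.0528). STEAP2 lost it only with DESeq2 (0.0547). DESeq2 also took the call from STEAP1 (0.0746), CYBRD1 (0.0595), SLC39A8 (0.0937) and SLC39A14 (0.1885). The same held for ALAS1 (0.0732), FECH (0.157) and LYRM4 (0.199) with DESeq2. With library size as the only scaling, edgeR adjusted p-values were 0.0966 for ALAS1, 0.131 for FECH, 0.116 for LYRM4 and 0.0835 for HSPA9.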

How the data were processed

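RNA-seq counts were analysed for 3 CBX8 KO and 3 WT CBX8 re-expression libraries, mapped to conditions by title. The genotype label of the re-expression libraries reads wild type, whereas title and methods describe re-expression in the knockout line. The values are raw counts for each gene symbol as the authors deposited them, made from reads trimmed with Trimmomatic and aligned to hg38 with HISAT2 (versions not given in the sources used here, nor are the counting program, annotation and strand setting). Duplicates carry no molecular identifiers.

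With edgeR 4.0.16 in R 4.3.3, filterByExpr kept 14461 of 57133 symbols, which were scaled by TMM and tested with glmQLFit and glmQLFTest with condition as the only term. FDR < 0.05 follows the methods. Standard errors are the absolute log2 fold change over the square root of F. The test was also run on counts simulated from its own fit, which says nothing about whether libraries of a condition came from separate cultures. Members and lists were chosen with earlier results of these data known. Named are the 10 members, CBX8, the 3 most counted pseudogenes per ferritin chain and, in each list, the called genes or, with none, the most abundant. BLVRA, BACH1, EPAS1, CDC42BPA, BEST1 and genes named for low counts were added after their values were seen. Places and lengths are from GENCODE release 44. No member's transcript matched an alternate contig of hg38 over more than 7.82% of its bases. Libraries of a condition differed by more than sampling noise (chi-square over its degrees of freedom, 1.97 to 2.90). A called gene of the lists is counted but not reported here by name, and its list is left out of the plot.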

Additional observations from a re-analysis of the deposited data

How the results depend on the processing

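FTL, FTH1, TFRC and HMOX1 were called lower under all 17 alternatives (3 other scalings, 2 other filters, DESeq2 1.42.0, limma 3.58.1 voom, FDR < 0.01, the replicate block, pseudogene counts added, BEST1 counts added and each library left out in turn). Their log2 fold changes lay between -0.67 and -0.59, -0.51 and -0.41, -0.50 and -0.42, and -0.53 and -0.40. The addition of BEST1 counts was chosen after seeing the data. No scaling moved the median of all genes by more than 0.06. No alternative called another member, and estimates that crossed 0 were those of uncalled genes. With library size only, they were 0.013 for IREB2, 0.045 for NCOA4 and 0.006 for PGRMC2, and with upper quartile scaling 0.002 for NCOA4. With 1 library left out, SLC11A2 ranged from -0.052 to 0.11, NCOA4 from -0.05 to 0.01, BLVRB from -0.132 to 0.005 and PGRMC2 from -0.152 to 0.034.

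The 13 genes of the lists called lower became 8 with library size only, 6 with DESeq2 and 6 at FDR < 0.01, and the 3 called higher became 1 with DESeq2. Leaving out 1 library gave between 6 and 10 lower and between 1 and 3 higher. Over all genes, 959 lower and 901 higher became 592 and 1400 with library size only, 569 and 489 at FDR < 0.01, and 419 higher with DESeq2. Without 1 library they ranged from 635 to 851 and from 593 to 792, both lowest without WT CBX8 re-expression replicate 2. FDR < 0.01 lowers counts by construction, and the cause of the others was not tested. The replicate block gave 766 lower and 739 higher genes and left the 4 members called. Deviations from the condition means were not alike in libraries of the same number (correlations of -0.102, -0.112 and -0.065 over 11971 genes), and the numbers were not treated as pairs.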

Other observations

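HMOX2, the constitutive heme oxygenase, had 1 or 2 counts in 5 libraries and 77 counts in WT CBX8 re-expression replicate 2. HMOX2 did not pass the filter on low counts of the main test, so no fold change is given for it. The alternative without a filter included it. It was singled out after its values were seen.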
